A study of Homo sapiens with 20 samples.

Results

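Pseudouridine signal at 108 positions of mitochondrial RNA was compared between control K562 cells and NME6 knockout cells that had been given NME6 back. The positions were taken from 16570 listed per library, and each had a mean level of 1 point or more over the 7 libraries compared. K562 is an established human chronic myelogenous leukaemia line. The 4 control libraries came from wild-type cells carrying a non-targeting sgRNA, and the 3 rescued libraries came from NME6 knockout cells with a wild-type NME6 cDNA. Another 4 libraries from NME6 knockout cells are set beside them, and 3 libraries from cells with RPUSD4 knocked down entered the fit for the estimate of spread. RNA of all 14 libraries came from isolated mitochondria and was treated with 0.5 M CMC, and each group also has untreated RNA, from 1 sample for the rescued cells and 2 for control. The labels do not say which vector or promoter drove the cDNA, whether a line was 1 clone, or whether replicates were separate cultures. P-values therefore measure the spread between these libraries, which may be technical. Only mitochondrial RNA was profiled, so neither NME6 transcript nor markers of the cell line could be checked, and the genotypes are given as labelled.

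Pseudouridine is an isomer of uridine that pseudouridine synthases make within RNA already transcribed. In mitochondria these enzymes modify the 16S rRNA of the large ribosomal subunit, several tRNAs and some mRNAs, and RPUSD4 is the synthase known for base 1397 of human 16S rRNA. NME6 belongs to the nucleoside diphosphate kinases, which exchange phosphate between nucleotides, and it resides in mitochondria. CMC, a carbodiimide, leaves a bulky group on pseudouridine that makes reverse transcriptase stop or misread there. The value analysed, called the level here, is the deposited signed difference per position, read as percentage points of altered reads in CMC-treated over untreated RNA. The unit is an inference from the values. The files hold no read depth, and a level of exactly 0 may mean that no read covered the base. The bases themselves were not analysed here, so a position is not known to be a uridine. Position numbers were taken as mitochondrial coordinates of GRCh38, and gene bounds as in RefSeq. Neighbouring positions can lie on the same reads and are not independent.

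The members covered most of the mitochondrial transcriptome. Of the 108 positions, 40 lay in mRNAs, 22 in tRNAs, 19 in 12S rRNA, 14 in 16S rRNA and 13 outside genes, all of these in the non-coding control region. They formed 73 stretches, of which 49 were single positions and 24 held 2 or more adjacent ones (59 positions in all, the longest stretch 6). In 12 of these 24 stretches the highest level was at the last position, in 9 at the first and in 3 inside. Members were found in 25 of 37 genes: both rRNAs, 12 of 13 mRNAs (all but ND4L) and 11 of 22 tRNAs. Nearest to the threshold on the inside were position 11365 in ND4, 10035 in TRNG and 8638 in ATP6, with means of 1.001, 1.004 and 1.004. Nearest on the outside were 4998 in ND2 at 0.999998, and 6102 and 6775 in COX1, both at 0.996.

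Control replicate 1 stood apart. It read exactly 0 at 58.9% of all listed positions, against 32.4% to 34.2% in the other control libraries and 27.7% to 33.5% in the rescued ones. Its mean level over all positions was 0.0851, against 0.156 to 0.159 in the others and 0.0973 to 0.119 in the rescued libraries. Among the members it was the lowest control library at 54 and the highest at 24. Identical negative levels, equal within 1e-09, were shared by every pair of control libraries (70 to 127 positions a pair) and every pair of rescued libraries (119 to 150). None of the 12 pairs of a control with a rescued library shared any. Each group thus seems to have had a single untreated profile subtracted from all its libraries, and an error in it would move all libraries of that group together. The rescued samples were registered apart from the other groups, and batch and rescue cannot be told apart.

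The positions called as different between rescued and control cells lay in 12S rRNA, 16S rRNA, COX1 and COX2, with the limits given in the next paragraph. With limma, 10 of 173 tested positions (5.78%) had an adjusted p under 0.05, and all 10 were members. Rescued cells were higher at 7 (4.05% of those tested) and lower at 3 (1.73%). Unadjusted p was under 0.05 at 20 of the 173. The 7 higher positions were 709 in 12S rRNA, 3065, 3066 and 3067 in 16S rRNA, and 6042, 6043 and 6044 in COX1. The 3 lower ones were 6762 and 6763 in COX1 and 7710 in COX2. These 10 positions make up 5 stretches. The count was 5 without control replicate 2, 4 without rescued replicate 1 and 6 without rescued replicate 2.

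The choice of members bears on these counts. The group means were both 1 or more at 42 members, of which 22 were higher and 20 lower in rescued cells, and 1 was called, 3067. At 20 members only the rescued mean reached 1, so rescued cells had to be higher, and 6 of them were called. At 46 members only the control mean did, and the remaining 3 calls were among them. All 3 rescued libraries lay above all 4 control libraries at 15 of the 108 members and below all of them at 7. Over the 173 positions tested, which include the members, these counts were 16 (9.25%) and 13 (7.51%). Over the 65 tested positions that were not members they were 1 and 6. An exact two-sided permutation test gave p = 0.0571 at each of these non-overlapping members, the smallest p that 4 against 3 libraries allow, so it could not pass 0.05.

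**Figure D1:**
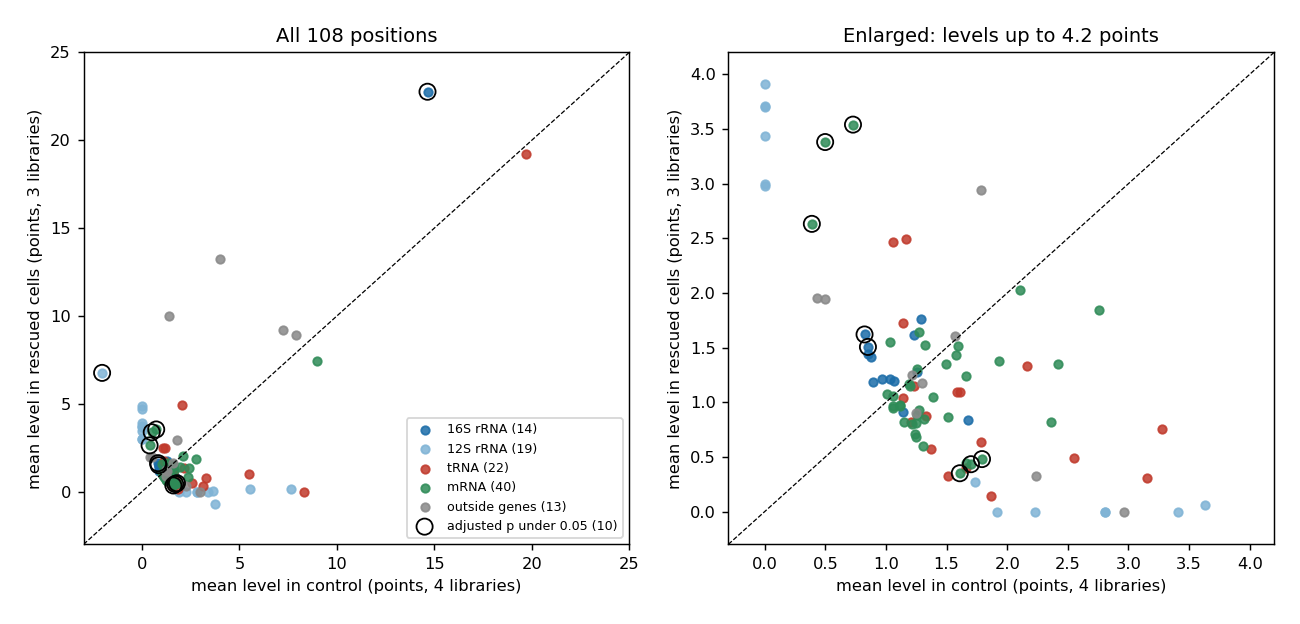
Mean level (points) at the 108 positions in control (4 libraries, x axis) against rescued cells (3 libraries, y axis), coloured by RNA class, with the range up to 4.2 points enlarged on the right; the dashed line marks equal levels and circles mark the 10 called positions. Base 1397 of 16S rRNA sits far above the line at 14.7 against 22.8 points, and the highest tRNA position sits on it.

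The largest call with both groups well above 0 was in 16S rRNA, the RNA core of the large mitochondrial ribosomal subunit. Position 3067, base 1397 of RNR2, read 14.1, 14.9, 13.8 and 15.8 points in the control libraries. In the rescued libraries it read 22.1, 22.9 and 23.3. Every rescued library was thus above every control library, and the spread within each group was small beside the gap. The means were 14.7 ± 0.911 (SD, n = 4) and 22.8 ± 0.599 (SD, n = 3). Rescued cells were 1.55-fold higher, by 8.11 points (95% interval 6.06 to 10.2, SE 0.934), with an adjusted p of 3.2e-04 by limma. Knockout cells read 17.5, 15.4, 14.3 and 13.3, a mean of 15.1 ± 1.81 that overlapped control (difference 0.487 points, SE 0.865, adjusted p = 0.963 with limma). Rescued minus knockout, which shares the rescued libraries, was 7.63 points (limma adjusted p = 3.9e-04). Knockout and control cells thus overlapped at this base, and the rescued cells lay above both. RPUSD4 knockdown cells had a mean of 9.59 at this base. Leaving out any one library kept the call, with differences of 7.82 to 8.5. Scaling each library to a common mean over the untested positions widened the difference to 13.0 but ended the call (limma adjusted p = 0.133).

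The positions just before it moved with it. At 3066 control cells read 0.959, 0.555, 0.826 and 0.953, and rescued cells 1.57, 1.84 and 1.45. The difference was 0.797 points (SE 0.188, limma adjusted p = 0.0283). At 3065 the control libraries read 0.911, 0.688, 0.799 and 1.01, and the rescued ones 1.35, 1.64 and 1.53. The difference there was 0.655 points (SE 0.171, limma adjusted p = 0.0467). Both sets were without overlap, and the levels were a small share of that at 3067. On the other side of the peak, position 3068 was near 0 in both groups, with means of 0.0638 in control and 0.0688 in rescued cells. The call at 3066 was lost without control replicate 2 (limma adjusted p = 0.0746), rescued replicate 1 (0.0605) or rescued replicate 2 (0.127). That at 3065 was lost without the same libraries (0.0809, 0.0602 and 0.168) or rescued replicate 3 (0.126).

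**Figure D2:**
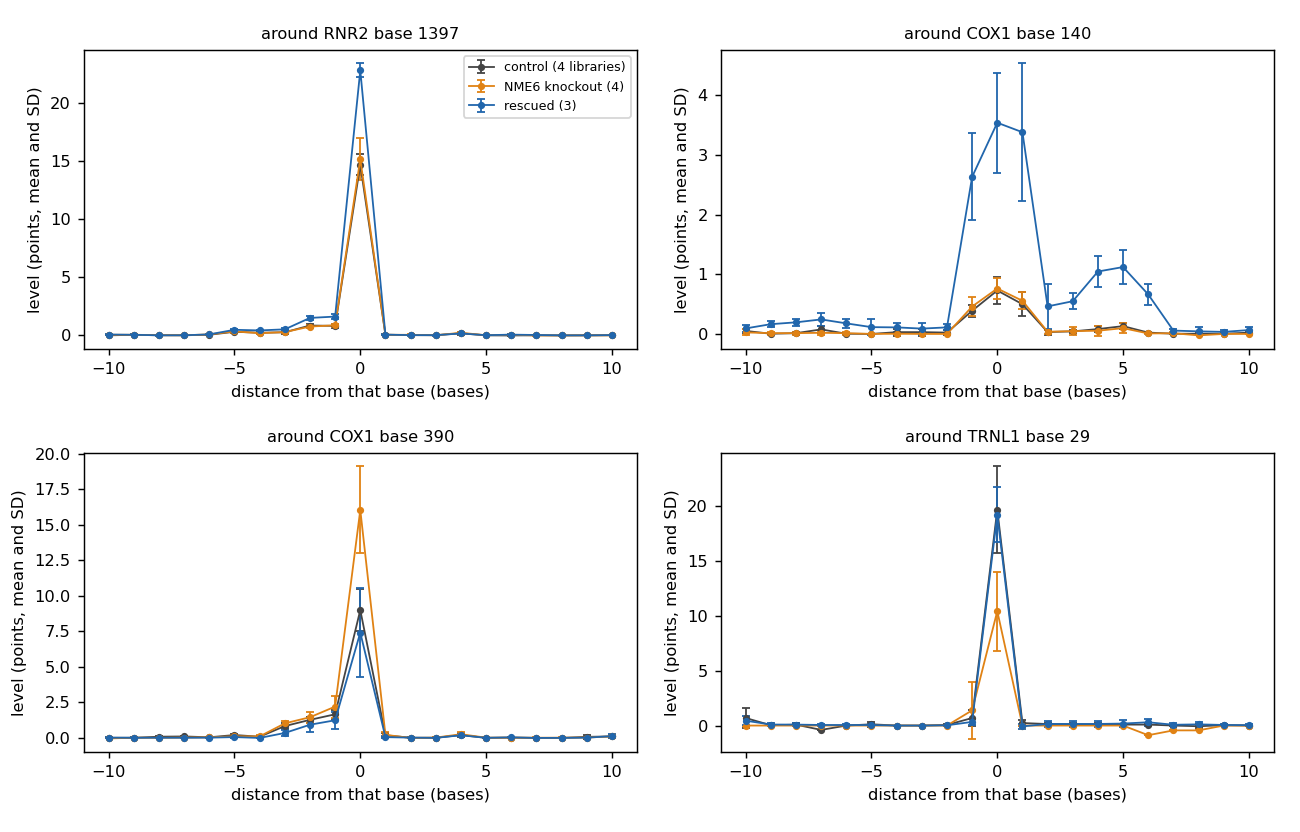
Level (points, mean and SD) within 10 bases of 4 positions in control (4 libraries), NME6 knockout (4) and rescued cells (3); the x axis is the distance from the named base. Around base 1397 of 16S rRNA the rescued peak is taller at the same base (22.8 against 14.7). Around base 140 of COX1 the rescued profile has a peak of 3 adjacent bases (3.54 against 0.728 at base 140) and a lower second rise (1.12 against 0.131 at distance 5). Around base 29 of TRNL1 and base 390 of COX1 the rescued mean lies near control (19.2 against 19.7, and 7.42 against 9.0).

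The other 11 members in 16S rRNA did not pass the test. Over all 14 members of this rRNA, rescued cells had the higher mean at 12 and the lower at 2, with a median difference of 0.34 points. Over all positions tested 55 were higher and 109 lower, with a median of -0.18. At 6 of the 12 only the rescued mean reached 1, and at the 2 only the control mean, so their direction was set by the choice of members. The 6 members with both means at 1 or more were all higher. Among the 17 tested positions of this rRNA 12 were higher and 5 lower. Averaged over the whole gene, the level was 0.144 in control and 0.141 in rescued cells. Control replicate 1 was the lowest control library at 11 of the 14, and without it the median difference was 0.145. At 2615, named after its values were seen, the control libraries read 0.615, 1.44, 1.46 and 1.39 and the rescued ones 1.63, 1.66 and 1.54. The groups did not overlap, but the difference of 0.383 points did not pass (limma adjusted p = 0.681). The stretch from 1791 to 1793, also named after its values were seen, was uneven among the rescued libraries. At 1791 they read 2.36, 0.133 and 2.79, against 0.484 to 1.77 in control.

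The next 3 calls were adjacent bases near the start of COX1, the mRNA of the catalytic core subunit of cytochrome c oxidase. At 6043, base 140 of COX1, the control libraries read 0.528, 0.861, 0.966 and 0.557 points. The rescued libraries read 3.06, 3.05 and 4.50. All rescued libraries were above every control library, and replicate 3 was the highest. The difference was 2.81 points (SE 0.337, limma adjusted p = 3.2e-04). At 6042 the control levels were 0.392, 0.395, 0.512 and 0.256 and the rescued levels 2.34, 2.10 and 3.46, a difference of 2.24 points (SE 0.290, limma adjusted p = 4.4e-04). At 6044 they were 0.367, 0.535, 0.767 and 0.324 against 2.83, 2.61 and 4.71, a difference of 2.88 points (SE 0.410, limma adjusted p = 8.2e-04). Knockout libraries overlapped the control range at all 3, with means of 0.459, 0.761 and 0.556. Against knockout, rescued cells were higher by 2.17, 2.78 and 2.82 points (limma adjusted p = 6.0e-04, 3.9e-04 and 9.9e-04). These 3 calls held without any one library. With only the control and rescued libraries in the fit, the adjusted p of limma was 0.0276 at 6042 and 6043 and 0.0582 at 6044, and with no level filter those of 6043 and 6044 were 0.573 and 0.144.

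The raised levels extended past these 3 members. They were seen in a stretch of 55 positions from 6042 to 6096, bases 139 to 193 of COX1. At 17 of these all rescued libraries were above all control libraries with a mean difference of 0.5 points or more. Among the positions that were not members this held at 38 of 16462 (0.231%). The bounds of the stretch were set after the values were seen, at positions where rescued cells were higher, so this is a description. Its mean level per library was 0.0683, 0.133, 0.166 and 0.136 in control and 0.529, 0.473 and 0.796 in rescued cells. Knockout libraries read 0.101, 0.128, 0.155 and 0.131, overlapping control. The difference of at least 0.5 points that was reached at 17 of the 55 positions was not limited to the 3 members: at 6048 the means were 0.131 in control and 1.12 in rescued cells, at 6077 0.477 and 1.41, and at 6096 0.381 and 1.64. Over the remainder of COX1 the order was the other way, with 0.157 ± 0.0437 (SD, n = 4) in control and 0.117 ± 0.0190 (SD, n = 3) in rescued cells. In windows of 50 bases over all genes, rescued libraries lay above all control libraries in 9 of 289 and below in 43. In COX1 they lay above in 2 of 30, bases 101 to 150 (0.0790 against 0.343) and 151 to 200 (0.134 against 0.444), and below in 3. The cDNA's sequence and that of its vector were not analysed here.

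**Figure D3:**
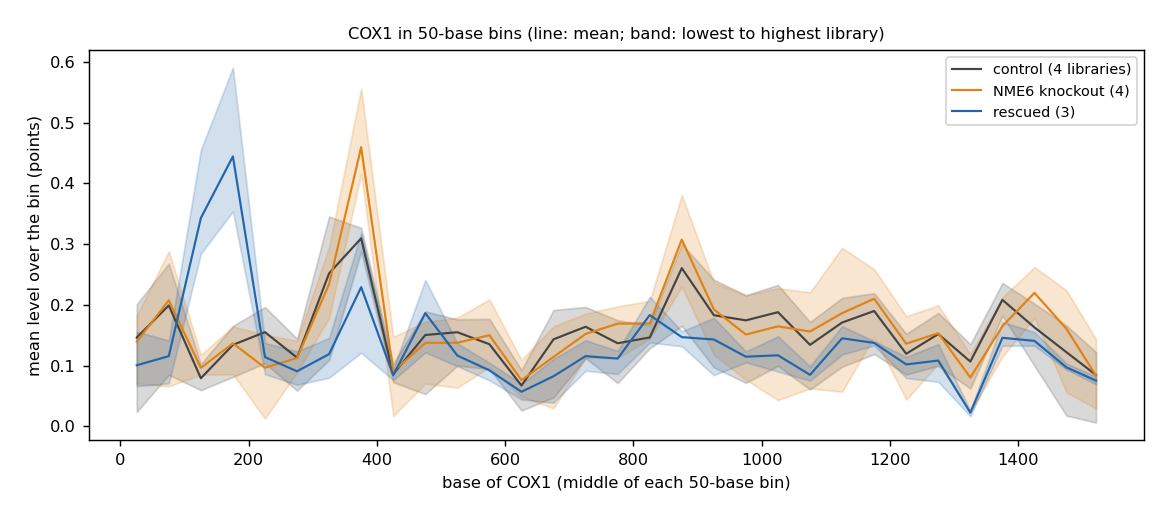
Mean level (points) over 50-base bins along COX1 in control (4 libraries), NME6 knockout (4) and rescued cells (3); lines are group means and bands run from the lowest to the highest library. The rescued band is above the others in the 2 bins from base 101 to 200 (0.343 and 0.444 against 0.0790 and 0.134 in control), and elsewhere it lies mostly at or under the control mean.

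Farther along COX1, 2 adjacent positions were lower in rescued cells. At 6762, base 859, control cells read 1.32, 1.81, 1.81 and 1.86 and rescued cells 0.400, 0.475 and 0.423. At 6763 they read 1.46, 1.87, 1.93 and 1.91 against 0.431, 0.549 and 0.460. The rescued libraries were close together and far under all control libraries, of which replicate 1 was the lowest. The differences were -1.27 points (SE 0.278, limma adjusted p = 0.0220) and -1.31 points (SE 0.296, limma adjusted p = 0.0234). Knockout means were 2.21 and 2.32, above control at both, and rescued minus knockout was -1.78 and -1.84 points (limma adjusted p = 0.00156 and 0.00169). Leaving out control replicate 2, 3 or 4 or any rescued library ended both calls, with limma adjusted p from 0.0598 to 0.143 and differences of -1.29 to -1.21 points at 6762 and -1.35 to -1.27 at 6763.

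The strongest mRNA position did not differ by the test. Position 6293, base 390 of COX1, read 10.8, 7.65, 9.56 and 8.01 in control and 10.1, 8.15 and 3.99 in rescued cells. Rescued replicate 3 was the lowest of all 7, and the other two rescued libraries lay within the control range. The means of 9.0 and 7.42 were -1.58 points apart (95% interval -9.48 to 6.31, SE 3.60), which did not pass (limma adjusted p = 0.988, exact permutation p = 0.514). Without rescued replicate 3 it was 0.128. Knockout libraries read 20.6, 14.9, 14.5 and 14.2, all above the control and rescued libraries. Rescued minus knockout was -8.63 points and knockout minus control 7.05, and neither passed (limma adjusted p = 0.249 and 0.645). The SD was 1.45 points in control, 3.06 in knockout and 3.12 in rescued cells. The spread used in the fit also draws on the RPUSD4 knockdown libraries and on the other positions. Not passing therefore does not mean that knockout lay near control. The other 8 members in COX1 were lower in mean in rescued cells, by 0.148 to 0.562 points, with none called.

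In COX2, whose protein carries the copper centre that accepts electrons from cytochrome c, the only member was called. Position 7710, base 125, read 0.856, 2.11, 1.71 and 1.76 in control and 0.357, 0.315 and 0.380 in rescued cells. Control replicate 1 was the lowest control value and still above every rescued one. The difference was -1.26 points (SE 0.255, limma adjusted p = 0.0144). Knockout libraries read 1.05, 1.17, 1.35 and 1.25, all inside the control range, and the rescued level was lower than theirs by 0.856 points without passing (limma adjusted p = 0.0841). The call was lost without rescued replicate 1 (0.0602) or rescued replicate 2 (0.0553). In COX3, a further core subunit of the same complex, the 3 members were all lower in mean and none was called. At 9478 the levels were 2.62, 2.58, 2.68 and 3.14 in control and 2.16, 1.73 and 1.63 in rescued cells, without overlap (difference -0.913 points, limma adjusted p = 0.530).

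**Figure D4:**
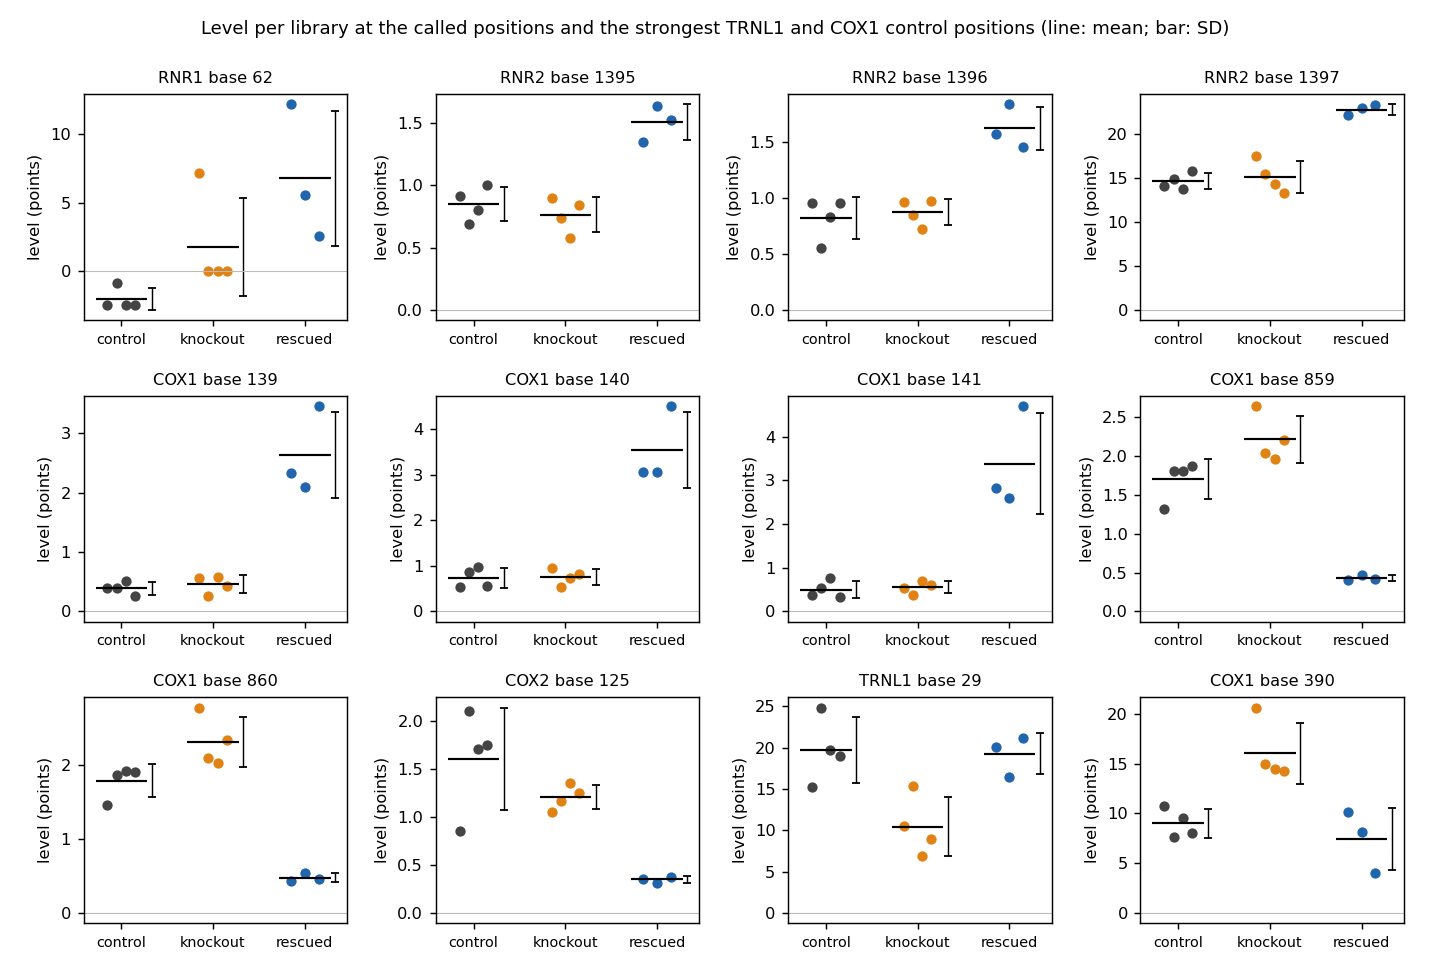
Level (points) in each control (4), NME6 knockout (4) and rescued (3) library at the 10 called positions and at the highest control positions of TRNL1 and COX1; horizontal lines are means and bars SD. Rescued points lie apart from control in the first 10 panels, while in the TRNL1 and COX1 base 390 panels the rescued and control points overlap (19.2 against 19.7, and 7.42 against 9.0) and the knockout means (10.4 and 16.05) lie away from both, with 1 TRNL1 knockout point at the edge of the control range.

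Among tRNAs the highest mean level was in TRNL1, the mitochondrial tRNA for leucine with a UAA anticodon. Position 3258, base 29, read 15.3, 24.8, 19.7 and 19.0 points in control and 20.1, 16.5 and 21.2 in rescued cells. The rescued libraries all fell inside the control range. The means were 19.7 ± 3.94 (SD, n = 4) and 19.2 ± 2.47 (SD, n = 3), 97.7% of control. Rescued minus control was -0.449 points (95% interval -5.97 to 5.08, SE 2.52), with an adjusted p of 1.0 by limma and an exact permutation p of 0.971. That interval still allows a change of several points either way. Knockout libraries read 10.5, 15.4, 6.93 and 8.93, a mean of 10.4 that was 9.25 points under control (limma adjusted p = 0.283) and 8.81 under the rescued cells (limma adjusted p = 0.0755). Of the knockout libraries, only replicate 2 reached the lowest control value.

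The other tRNA members did not pass the test either, 0 of 22 being called. Rescued cells had the lower mean at 18 and the higher at 4, with a median difference of -0.66 points. At 12 of the 18 only the control mean reached 1, so these had to be lower. The 10 members with both means at 1 or more split into 4 higher and 6 lower. Only at 3285 in TRNL1 were rescued cells above all control libraries, with 4.08, 7.22 and 3.58 against 2.72, 1.36, 0.690 and 3.35 (difference 2.93 points, limma adjusted p = 0.284). Only at 7523 in TRND, the aspartate tRNA, were they below all, with 0.825, 0.465 and 0.966 against 7.89, 1.71, 2.14 and 1.35. In TRNG, the glycine tRNA, all 4 members were lower in mean, but control replicate 1 was the highest library at each. At 10048 it read 12.1 against 1.87, 3.83 and 4.10 in the other control libraries and 0.168, 2.44 and 0.373 in rescued cells. The single member in TRNF, 588, read 33.3 in control replicate 1 and 0 in the other 6 libraries. In TRNK, the lysine tRNA, both members had the higher mean in rescued cells: at 8315 they read 3.08, 2.04 and 2.35 against 0, 1.88, 0.340 and 2.45. Control replicate 1 was the highest control library at 11 of the 22 tRNA members and the lowest at 9, and without it 7 were higher and 14 lower, with a median of -0.27. In tRNAs of the heavy-strand transcript 4 of 18 members were higher and 14 lower, and in those of the light-strand transcript 0 of 4 were higher.

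In 12S rRNA, the RNA of the small ribosomal subunit, values came mostly from 1 or a few libraries. At 18 of the 19 members 3 or more of the 7 libraries read exactly 0, and over the whole gene 98.5% of control and 92.2% of rescued values were 0. Position 709, base 62 of RNR1, was the only call: rescued cells read 12.2, 5.55 and 2.56, and control cells -2.44, -0.877, -2.44 and -2.44. The groups did not overlap, and 3 control libraries shared a negative value. The difference was 8.81 points (SE 2.19, limma adjusted p = 0.0359). With negative levels set to 0 it was 6.76 and no longer passed (limma adjusted p = 0.136), nor did it pass without any one control library or without rescued replicate 1 or 2 (limma adjusted p from 0.0655 to 0.143). At 1205 and 1206, adjacent bases at 0 in every control library, rescued cells read 9.80, 0.844 and 3.96 and then 9.80, 0.420 and 3.96 (limma adjusted p = 0.103 and 0.142). At 1255 and 1256 control was likewise at 0 and rescued cells were above it throughout (limma adjusted p = 0.413 at both). At position 1025 all rescued libraries shared the value -0.690, while control replicate 1 read 15.0 and the others 0. At 1335 control replicates 1 and 4 read 22.2 and 8.45 and the other two 0. Over the 19 members 9 were higher and 10 lower in mean, with a median of -1.46 points that became 0.159 without control replicate 1. These directions were set by the choice of members. At all of the 9 only the rescued mean reached 1, and at all of the 10 only the control mean did.

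The mRNAs of the other complexes gave no call. In complex I, the NADH dehydrogenase that feeds electrons into the chain, 4 of 14 members were higher and 10 lower in mean, with a median difference of -0.10 points. Position 11365 in ND4 was below control in all rescued libraries, at 0.643, 0.659 and 0.486 against 0.827, 1.66, 1.42 and 1.31 (difference -0.709 points, limma adjusted p = 0.439). The highest ND2 member, 5247, read 2.19, 2.22 and 1.66 in rescued cells and 1.71, 2.14, 2.30 and 2.27 in control, with overlap. In ND6, the only mRNA read from the light-strand transcript, position 14504 had 1.71, 1.25 and 1.69 against 1.35, 0.9999, 1.06 and 0.736, again overlapping. All 5 members in CYTB, the complex III subunit, were lower in mean by 0.418 points or less. In the ATP synthase genes ATP8 and ATP6, 1 of 3 members was higher and 2 were lower, all within 0.33 points of control.

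Across all 40 mRNA members 8 were higher and 32 lower in mean, with a median difference of -0.34 points. At 19 of the 32 only the control mean reached 1, and at 3 of the 8 only the rescued mean, so their direction was set by the choice of members. The 18 with both means at 1 or more split into 5 higher and 13 lower. The median over all 40 members was 0.798, 1.41, 1.45 and 1.62 in the control libraries and 1.2, 1.24 and 0.866 in the rescued ones. Rescued libraries thus lay under the 3 similar control libraries and above control replicate 1, which was the lowest control library at 27 of the 40. Without it 5 were higher and 35 lower, and without rescued replicate 3, 15 were higher and 25 lower (median -0.11). After each library was scaled to a common mean over the untested positions, 19 were higher and 21 lower, with a median of -0.0108. That scaling itself brings mRNA levels together, since mRNAs hold 11341 of the 16570 listed positions. Their mean over all these was 0.142 in control and 0.101 in rescued cells. Whether the lower level is a matter of scale was therefore not tested. By place in the codon, counted from the first base of each gene, 11 members lay at the first, 17 at the second and 12 at the third position, and 2, 5 and 1 of these were higher. Averaged over all positions of a gene, the rescued mean was lower in 13 of 13 mRNAs and 18 of 22 tRNAs, but below all control libraries in 2 mRNAs (CYTB and ND5) and 2 tRNAs (TRND and TRNN).

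Outside genes, the 13 members lay in the control region, the non-coding stretch that holds the promoters and the heavy-strand origin, and none was called. In the longest stretch, 305 to 310, levels were high and uneven. At 310 control libraries read -3.80, 7.21, 6.07 and 6.57 and rescued libraries 20.04, 15.02 and 4.60 (difference 9.21 points, SE 4.63, limma adjusted p = 0.474). Control replicate 1 was negative and rescued replicate 3 low there, and so they were at 307, 308 and 309. At 16103 and 16104, named after their values were seen, rescued cells were above all control libraries: 2.07, 1.97 and 1.80 against 1.42, 0, 0.145 and 0.415 at 16103 (difference 1.45 points, limma adjusted p = 0.186), and 2.05, 2.0 and 1.80 against 1.28, 0.188, -0.00699 and 0.263 at 16104 (1.52 points, limma adjusted p = 0.530). The knockout means there, 1.26 and 1.76, were nearer to the rescued than to the control means of 0.496 and 0.432. Over the 13 members 9 were higher and 4 lower, with a median of 0.999 points, and without control replicate 1 it was -0.279. At 2 of the 9 only the rescued mean reached 1, and at 3 of the 4 only the control mean, which set their direction.

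**Figure D5:**
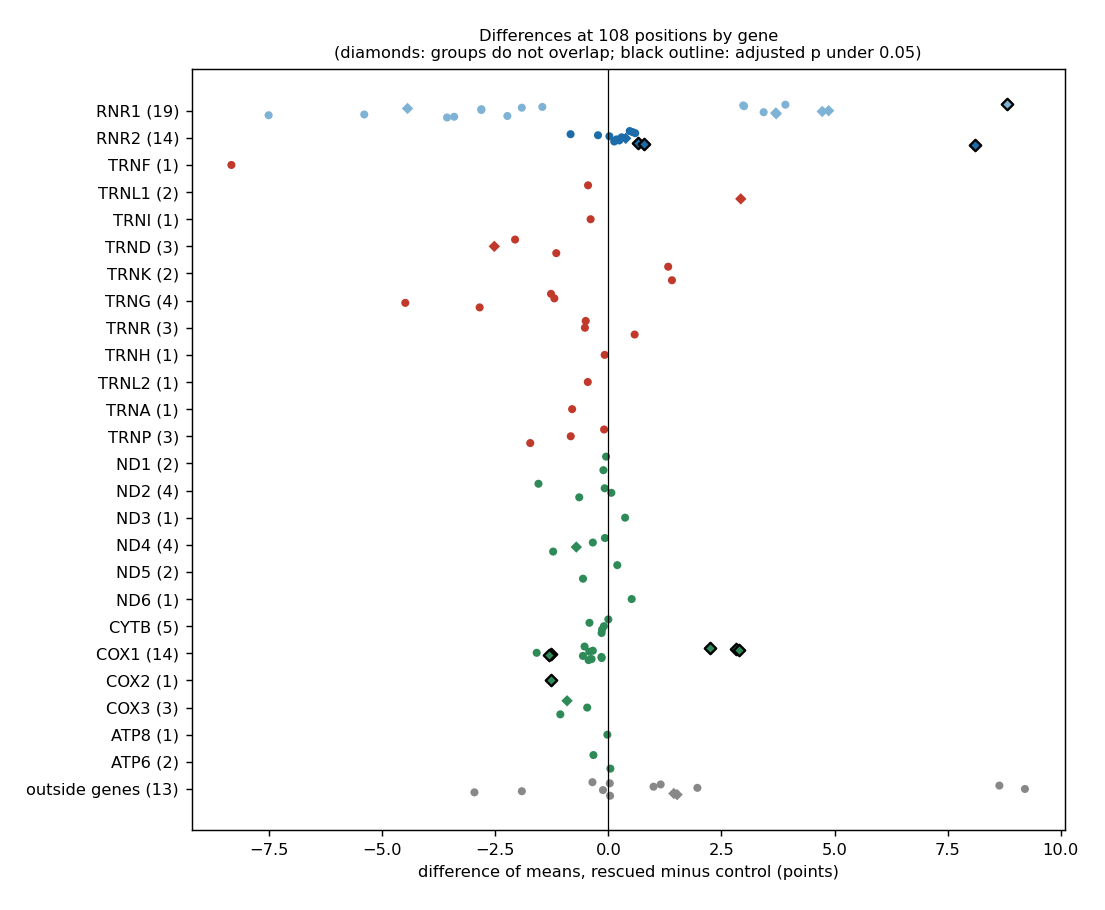
Difference of group means (rescued minus control, points, 3 against 4 libraries) at the 108 positions, by gene with the number of members in parentheses; diamonds mark members whose groups do not overlap and black outlines the 10 called. The outlined members fall in RNR1, RNR2, COX1 and COX2, and the wide scatter of RNR1, TRNF and the positions outside genes (up to 9.21 points) is without outlines except at 1 RNR1 position.

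Of the other 2 comparisons of the same fit, rescued minus knockout had 8 calls among 173 tested positions (4.62%), and knockout minus control had 0 (0.0%), with 9 positions at an unadjusted p under 0.05. The 8 positions were 3065, 3066, 3067, 6042, 6043, 6044, 6762 and 6763, whose values against control are given above. These comparisons share libraries, so they are not independent of each other. At 3258 and 6293 the knockout mean stood farther from the control mean than the rescued mean did. Neither position was called in any of the 3 comparisons. They were named as the highest members of their genes, and other positions of this kind were not searched for.

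Among the 16462 positions that were not members, rescued libraries were above all control libraries with a mean difference of 0.5 points or more at 38 (0.231%), and below by as much at 106 (0.644%). In COX1 they were above at 15 of 1528 such positions (0.982%) and below at 4 (0.262%). All of these 15 but 7436 lie in the stretch from 6042 to 6096 described above. Positions below numbered 17 of 1367 in ND4 (1.24%), 15 of 1810 in ND5 (0.83%) and 10 of 1136 in CYTB (0.88%), the largest counts among mRNAs. The share was higher in ND4L (4 of 297, 1.35%) and ATP6 (8 of 633, 1.26%). Among tRNAs the largest shares were 3 of 59 below in TRNS2 (5.08%) and 4 of 65 above in TRNP (6.15%). In TRNN, the asparagine tRNA, which has no member, 2 of 73 positions were above and 3 below. The largest of these, 5674, named after its values were seen, had a mean of 0.0691 in control and 1.82 in rescued cells, with knockout at 0. Over all 108 members 42 were higher and 66 lower in mean, with a median difference of -0.15 points, and the median SD was 0.64 points in control and 0.26 in rescued cells.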

How the data were processed

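CMC-seq profiles of mitochondrial RNA from K562 cells were analysed. Per the submitters' processing notes, the authors used Trimmomatic, STAR and SAMtools with builds GRCh38 and hg38; the sources used here give no version, mapping setting or rule for calling altered reads. The values the authors deposited are signed scores, 1 for each position, under a header that reads delta, and the files give no unit, depth or base. Each file lists 16570 positions, from 2 to 16571.

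Of 20 samples, 14 carry a profile; the 6 untreated ones were not analysed on their own. Groups come from the labels. The positions and lists were chosen with earlier results of these data known. The members have a mean score of 1 or more over the 4 control and 3 rescued libraries. Tested were positions reaching 1 over these or over all 14 libraries, 173 in all, on the scores as given, by lmFit and eBayes (trend) of limma 3.58.1 under R 4.3.3, two-sided, with Benjamini-Hochberg adjustment over the 173. This step was tested on simulated data with independent normal noise. Those data lack the exact zeros, linked neighbours and outlying control library of the real ones, so the test does not cover these. Exact permutation tests used scipy 1.17.1 under Python 3.11.15, and tables and plots were made with pandas 2.3.3, numpy 2.4.6 and matplotlib 3.10.9. Without depths there are no counting intervals.

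Named were all calls, the largest non-overlapping members, the 10 highest in control, the highest of each gene and those nearest the threshold; others are said to be chosen after their values were seen or serve as neighbours of these. Same-numbered control and rescued libraries did not deviate together, so the numbers were not taken as pairs. Alternatives covered level filters, samples in the fit, empirical Bayes settings, weights, scaling, log scale, negative values, a replicate block and left-out libraries; leaving out positions with zeros, or 12S rRNA with the positions outside genes, was added after seeing the data. No sequence of the files' build was used here.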

Additional observations from a re-analysis of the deposited data

Results flagged for a closer look

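Control replicate 1 lay far from the other 3 control libraries in 14 of the 17 values flagged here, among 61 groups of 4 libraries looked at. The rule flags about 1 in 20 groups of independent normal values. Neighbouring positions and groups with 3 libraries at 0 are not such values, and some positions were named for a control mean that this library raised. The flags can therefore not be set against that rate. Over its whole profile control replicate 1 was flagged for positions at exactly 0 (58.9%, others 32.4% to 34.2%), for the mean level (0.0851, others 0.156 to 0.159) and for the median over the members (0.597, others 1.33 to 1.37). It was far below the others in the control region at 308 (-7.56, others 12.7 to 13.4), 309 (-6.57, others 11.4 to 12.2) and 310 (-3.80, others 6.07 to 7.21). It was far above them at 588 in TRNF (33.3), 1025 and 1334 in RNR1 (15.0 and 22.2) and 10035 in TRNG (6.06), where the others read 0, and at 7523 in TRND (7.89, others 1.35 to 2.14). It was below them at 6762 and 6763 in COX1 (1.32, others 1.81 to 1.86; and 1.46, others 1.87 to 1.93) and at 10409 in TRNR (0.249, others 2.03 to 2.09). With it left out, 9 of the 10 calls remained; that at 709 did not.

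Control replicate 2 was flagged at 709 in RNR1 (-0.877), where the other control libraries shared -2.44. NME6 knockout replicate 1 was flagged at 6293 in COX1 (20.6, others 14.2 to 14.9) and at 709 (7.14, others 0). Groups of 3 libraries, the rescued cells among them, were not looked at in this way. What sets control replicate 1 apart was not tested.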

How the results depend on the processing

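The call at 6042 in COX1 held in all 19 alternatives that could test it, that at 3067 in 21 of 22 (lost when libraries were scaled), and those at 6043 and 6044 in 19 and 18 of 20. The others were lost more often: 709 in 11 of 18, 3065 in 12 of 20, 3066 in 8 of 19, 6762 in 10 of 21, 6763 in 11 of 21 and 7710 in 5 of 21. No called difference changed sign.

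The 10 calls (7 higher, 3 lower) became 4 (3 and 1) with the filter over all 14 libraries, 1 (1 and 0) with a minimum of 2, 7 (2 and 5) with the median for the mean, 5 (3 and 2) with 2 groups in the fit, 34 (10 and 24) with library weights, 4 (3 and 1) with scaled libraries, and 23 (9 and 14) with both first replicates out. With negative values set to 0 there were 8 (5 and 3), and with robust empirical Bayes 8 (6 and 2). With no level filter 103 passed (66 and 37), of which 2 were among the 10. Leaving out 1 library gave 4 to 10 calls, 4 to 7 higher and 0 to 4 lower. With the replicate number as a block 4 passed (4 and 0), all among the 10; same-numbered libraries correlated at -0.277, 0.0331 and -0.272 in their deviations, so the numbers do not pair them.

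Median differences by class moved more than the spread between libraries as follows. Scaling gave -1.14 for 12S rRNA, 0.749 for 16S rRNA and -0.0108 for mRNA. A minimum of 2 gave -3.57, 8.11, -0.913, 1.97 and -2.52 for 12S rRNA, 16S rRNA, mRNA, positions outside genes and tRNA. These rest on only 5, 1, 3, 5 and 5 members, and the value for 16S rRNA is that of 3067 alone. Both first replicates out gave 0.159 for 12S rRNA and -0.279 outside genes, and negative values set to 0 gave 0.0380 outside genes. With 1 library left out the medians ranged from -1.73 to 0.271 for 12S rRNA and from -0.279 to 1.33 outside genes. Not every median in these ranges moved by more than the spread, 1.33 being among those that did not. The difference at 3258 turned to 4.36 with scaling and ranged from -1.93 to 1.27 with 1 library out (1.27 without control replicate 2, 0.942 without rescued replicate 2), and that at 6293 from -2.93 to 0.128. The cause of these changes was not tested. Levels under about 1 point and positions listed at 0 are limited by a depth that is unknown.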
